A study of Homo sapiens with 30 samples.

Results

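MT2A, SLC30A1 and MTF1 are 3 genes of the cellular response to metals, and their RNA was followed in HEK293-derived cells exposed to arsenite. The members were chosen by symbol from the raw count table, in which all 3 were found among 60664 genes. Each was tested in every comparison. On GRCh38, MT2A (ENSG00000125148) lies at chr16:56608584-56609497 on the plus strand, SLC30A1 (ENSG00000170385) at chr1:211571568-211579161 and MTF1 (ENSG00000188786) at chr1:37809574-37859592, both on the minus strand. No annotated exon of another gene overlaps their exons.

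The cells are Flp-In T-REx HEK293, an established human embryonic kidney line built to take up 1 gene copy whose expression needs tetracycline. The WT line carries GFP-tagged wild-type TIA1a, a protein that binds RNA and takes part in stress granules. The WDM line carries the same fusion with the mutation of Welander distal myopathy, a muscle disease. Both are stably transfected lines made in-house, and 1 line stood for each genotype. Cytosol RNA came from 3 conditions in each line: untreated cells, cells given tetracycline, and cells given tetracycline plus 0.5 mM sodium arsenite for 60 min. RNA of the granule fraction, a high-speed pellet pulled down through GFP, came from the last 2 conditions. Each of the 10 groups had 3 libraries, 30 in all. The labels do not say that replicates were separate cultures, so p-values measure only the spread between these samples, which may be technical.

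Metallothioneins such as MT2A are small, cysteine-rich proteins that bind zinc, copper and toxic metals. SLC30A1, also called ZnT1, exports zinc from the cytosol across the plasma membrane. MTF1 is a zinc-sensing transcription factor that activates both genes when free zinc rises, by binding metal response elements (MREs) in their promoters. Arsenite reacts with thiols and is a known inducer of metallothionein genes.

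The promoters of the 3 genes are shown with any matches to the element through which the activator acts. Each sequence is the 250 bases before the gene's RefSeq start (GRCh38.p14), read 5′ to 3′ on the gene's strand, with matches to the MRE core in capitals. The core was searched on both strands as TGCACNC and TGCGCNC. MT2A lies on the plus strand (chr16:56608334-56608583), SLC30A1 on the minus strand (chr1:211579162-211579411) and MTF1 on the minus strand (chr1:37859593-37859842).
MT2A: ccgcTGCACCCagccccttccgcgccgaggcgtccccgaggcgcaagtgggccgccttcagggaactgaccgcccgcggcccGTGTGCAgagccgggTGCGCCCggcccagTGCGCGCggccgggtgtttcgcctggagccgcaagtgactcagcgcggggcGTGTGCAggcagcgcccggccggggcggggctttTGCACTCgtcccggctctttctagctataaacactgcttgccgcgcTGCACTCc
SLC30A1: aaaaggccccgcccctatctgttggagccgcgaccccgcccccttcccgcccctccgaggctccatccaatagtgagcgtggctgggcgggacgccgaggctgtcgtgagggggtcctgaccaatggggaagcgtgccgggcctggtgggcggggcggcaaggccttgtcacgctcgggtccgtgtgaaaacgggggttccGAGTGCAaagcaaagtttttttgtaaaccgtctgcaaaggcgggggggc
MTF1: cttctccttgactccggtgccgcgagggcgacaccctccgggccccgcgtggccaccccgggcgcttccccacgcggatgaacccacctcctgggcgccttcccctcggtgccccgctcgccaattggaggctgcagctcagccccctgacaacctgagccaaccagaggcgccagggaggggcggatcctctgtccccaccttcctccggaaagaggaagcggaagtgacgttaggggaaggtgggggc

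The MT2A promoter holds 7 matches, from 246 bases to 2 bases before the start. Of 35116 promoters searched over the same window, 24.8% held at least 1 match and 11 held 7 or more (0.0313%). SLC30A1 has 1 match, on the reverse strand from 49 to 43 bases before its start, and MTF1 has none of these letters in the window. The MT2A window also holds the AP-1 site TGACTCA, 104 to 98 bases before the start, which 4.20% of promoters hold. It overlaps a match to TGACNNNGC, the core of the antioxidant response element, which 10.9% hold, as does SLC30A1. A TATA box (TATAAA) lies 29 bases before the MT2A start and is held by 10.7% of promoters. A match describes these letters and does not show a bound site.

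Library depth ran from 5906167 to 27419145 counts, lowest in granule WT tetracycline replicate 1 and, within cytosol, in WDM tetracycline replicate 1. A floor of 3 counts corresponds to 0.109 to 0.508 CPM (counts scaled to a common library total), for counting error only. Markers of HEK293 were present in every library, with VIM at 630 to 841 CPM in cytosol, except that NEFM stayed at or under 0.483 CPM. Of the markers of other cell types, the summed leukocyte, hepatocyte and skeletal muscle lists stayed at or under 0.735 CPM in every library. The endothelial list reached 1.60 CPM in cytosol and 3.22 CPM in granules, with VWF counted in every library. HBA1 was counted in all 18 cytosol libraries, up to 1.94 CPM, while HBB was at 0 throughout. TIA1 had 3 counts in all, so the table could not be used to check that the transgene was switched on.

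The levels of the 3 genes differed by gene and by fraction. Per exon length (RPKM, the CPM divided by the annotated exon length in kilobases), MT2A and SLC30A1 had similar cytosol levels, with group means of 10.3 to 17.4 for MT2A and 9.97 to 16.7 for SLC30A1. MTF1 was lower, at 2.02 to 3.25 RPKM. The ratio of MT2A to SLC30A1, averaged over the 3 libraries of a group, lay between 0.863 and 1.26 in cytosol. In the granule fraction it lay between 0.167 and 0.518, and MTF1 reached group means of 4.15 to 9.48 RPKM there.

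Sorted by mean CPM, the 4 granule groups were lowest for MT2A and the 4 granule groups were highest for MTF1. The order for MT2A held 3 gaps between neighbouring groups whose libraries did not overlap: between granule tetracycline and granule arsenite, between granule arsenite and the cytosol groups without arsenite, and between those and cytosol with arsenite. For MTF1 the 4 cytosol groups without arsenite overlapped in order, the 2 cytosol arsenite groups had the next means, and granule WDM tetracycline, granule WT tetracycline and the granule arsenite pair followed without overlap. Overlap here is between each group and the next one, so groups farther apart can still overlap. For SLC30A1 each group overlapped the next one in the order. The lowest mean was 45.9 CPM in granule WT tetracycline and the highest 98.5 CPM in cytosol WDM arsenite.

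**Figure D1:**
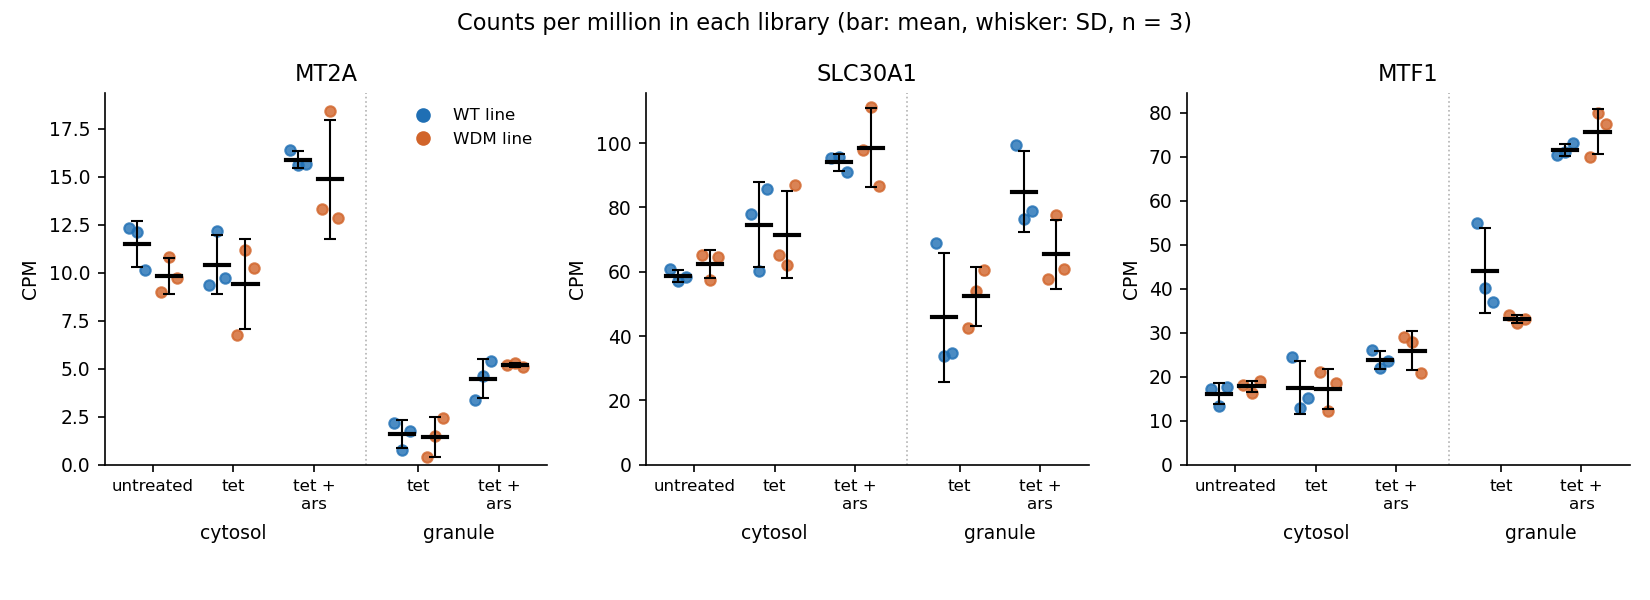
CPM (vertical axis, from 0) of MT2A, SLC30A1 and MTF1 in each library of the 10 groups, by fraction and treatment (horizontal axis); points are libraries, blue for the WT line and orange for the WDM line, bars are means and whiskers SDs of 3 libraries. MT2A is lowest and MTF1 highest in the granule fraction, and all 3 have their highest cytosol means with arsenite.

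Arsenite was compared with tetracycline alone in the cytosol of each line, by edgeR's quasi-likelihood test fitted over all genes with Benjamini-Hochberg adjustment. MT2A rose in both lines, SLC30A1 rose in WDM, and MTF1 did not pass the test in either line, although it passed in WDM under other settings given with its values. In WT, 1 of the 3 genes was called against 29.0% of all 16670 genes tested (13.7% higher, 15.4% lower). In WDM, 2 of 3 were called against 28.8% (14.1% higher, 14.8% lower). These shares of all genes moved with single libraries. In WT the share was 42.5% without tetracycline replicate 1, 15.2% and 14.3% without tetracycline replicates 2 and 3, and 17.7% and 15.5% without arsenite replicates 1 and 2. In WDM it was 14.6% without tetracycline replicate 2 and 17.3% without arsenite replicate 1. In these bulk samples, a change in RNA per cell and a change in the share of cells that respond cannot be told apart.

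MT2A in WT cytosol had 9.38, 12.2 and 9.73 CPM with tetracycline and 16.4, 15.6 and 15.6 CPM with arsenite. The groups did not overlap, and the fitted rise was 1.39-fold (log2 0.47, SE 0.171, 95% interval 0.12 to 0.83, edgeR adjusted p 0.043). In WDM the values were 6.77, 11.2 and 10.3 CPM with tetracycline and 13.3, 18.4 and 12.9 CPM with arsenite. Again every arsenite library stood above every tetracycline library, with a 1.47-fold rise (log2 0.56, SE 0.172, edgeR adjusted p 0.0213). The low value of 6.77 CPM came from the shallowest cytosol library and rests on 54 counts.

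Both MT2A calls were sensitive to single libraries. In WT the call held in 1 of 6 fits that left out a library, the one without tetracycline replicate 2. The log2 change was 0.37 (edgeR adjusted p 0.11) without tetracycline replicate 1, 0.44 (0.129) without tetracycline replicate 3, and 0.45 (0.116), 0.49 (0.0889) and 0.48 (0.0775) without arsenite replicates 1, 2 and 3. In WDM it was 0.40 (edgeR adjusted p 0.0811) without tetracycline replicate 1 and 0.34 (0.132) without arsenite replicate 2, and the call was also lost when only the groups compared were fitted (adjusted p 0.101).

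SLC30A1 in WT cytosol had 77.8, 60.1 and 85.8 CPM with tetracycline and 95.4, 95.6 and 91.0 CPM with arsenite. The arsenite libraries were all higher, but the difference of log2 0.20 (SE 0.124, 95% interval -0.06 to 0.46) did not pass the test (edgeR adjusted p 0.231). In WDM it had 65.4, 62.1 and 87.1 CPM with tetracycline and 97.7, 111 and 86.6 CPM with arsenite. The groups overlapped at tetracycline replicate 3, and the rise was 1.29-fold (log2 0.37, SE 0.124, edgeR adjusted p 0.0301). That call was lost without tetracycline replicate 1 (log2 0.32, edgeR adjusted p 0.086), tetracycline replicate 2 (0.29, 0.145), arsenite replicate 1 (0.40, 0.0508) or arsenite replicate 2 (0.25, 0.146), and when only the groups compared were fitted (adjusted p 0.0969).

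MTF1, the activator, had 24.4, 13.0 and 15.2 CPM in WT cytosol with tetracycline and 26.0, 21.9 and 23.7 CPM with arsenite. Tetracycline replicate 1 lay among the arsenite libraries. The difference was log2 0.31 (SE 0.193, edgeR adjusted p 0.231), and without that library it was 0.59 (adjusted p 0.0116). In WDM the values were 21.1, 12.2 and 18.6 CPM with tetracycline and 29.1, 27.8 and 20.9 CPM with arsenite. The groups overlapped by a narrow margin, and the difference of log2 0.51 (SE 0.193, edgeR adjusted p 0.0564) was just outside the threshold. It passed without tetracycline replicate 1 (0.65, edgeR adjusted p 0.0238) or arsenite replicate 3 (0.63, 0.0251), with library size alone (0.59, 0.0452) and with no low-count filter (0.51, 0.00204).

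The nuclear RNAs MALAT1 and NEAT1 differed between the same cytosol libraries. Summed, they had 495 CPM in WT tetracycline replicate 1, where MTF1 was high, against 204 and 197 CPM in replicates 2 and 3. In WDM with tetracycline they had 640, 321 and 546 CPM, lowest in replicate 2, where MTF1 was lowest as well. With arsenite the sum was 509, 560 and 522 CPM in WT, highest in replicate 2, where MTF1 was lowest. In WDM with arsenite it was 830, 532 and 647 CPM, lowest in replicate 2, while MTF1 was lowest in replicate 3. Untreated cytosol had 324 to 392 CPM in WT and 609 to 670 CPM in WDM, at MTF1 levels that overlapped. In WT the sum separated the groups compared, at 197 to 495 CPM with tetracycline and 509 to 560 CPM with arsenite. In WDM it overlapped. Summed mitochondrial RNA separated the WDM groups, at 633 to 725 CPM with tetracycline and 758 to 980 CPM with arsenite. In WT it overlapped, at 467 to 794 CPM and 711 to 733 CPM. The part of these RNAs in the cytosol results of the 3 members was not tested.

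**Figure D2:**
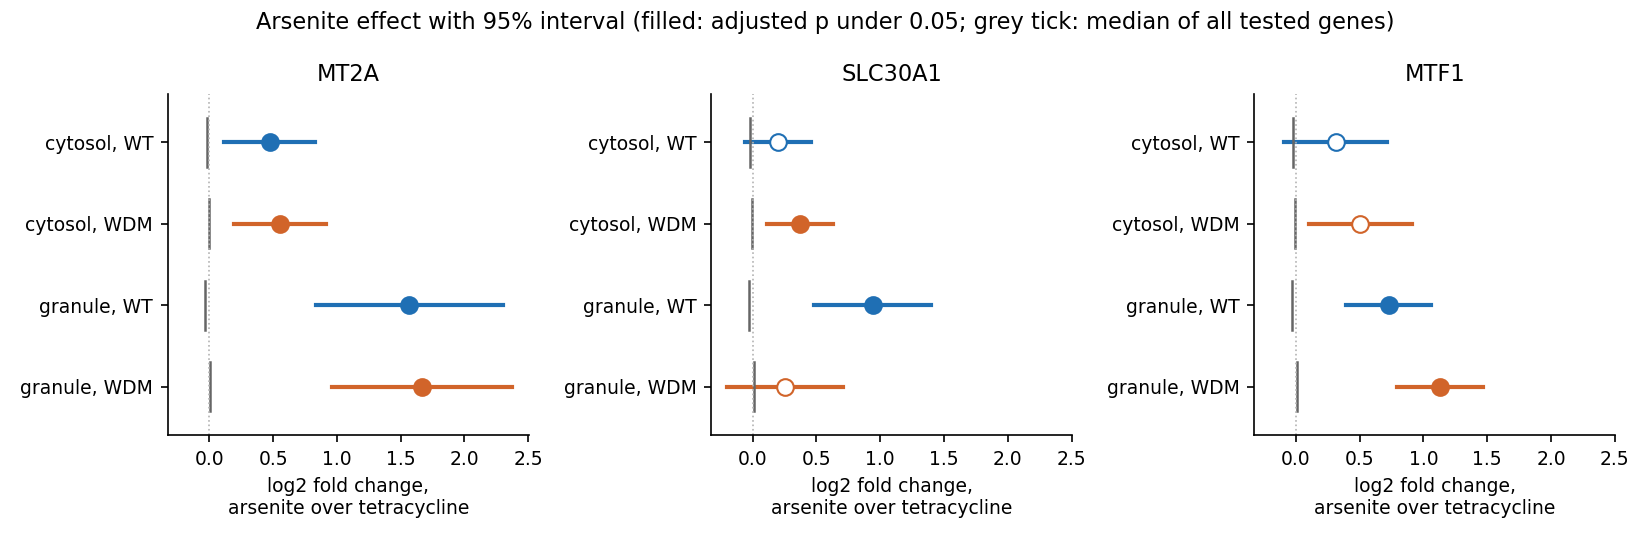
Log2 fold change of arsenite over tetracycline (horizontal axis) for MT2A, SLC30A1 and MTF1 in each fraction and line (rows), with 95% intervals; filled points passed an adjusted p of 0.05 and grey ticks mark the median of all genes tested. All 12 estimates are above 0, and the largest are those of MT2A in the granule fraction, 1.57 and 1.67.

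Set against untreated cells, the same arsenite libraries were most separated for SLC30A1. It had 60.9, 57.1 and 58.3 CPM in untreated WT and 65.1, 57.6 and 64.7 CPM in untreated WDM, all below every arsenite library of its line. The rise was 1.50-fold in WT (log2 0.59, SE 0.126, edgeR adjusted p 0.00178) and 1.51-fold in WDM (log2 0.59, SE 0.124, edgeR adjusted p 0.001), and it was called in all 6 fits of each line that left out a library. In WT it was the 1 member called, against 32.3% of all genes (15.2% higher, 17.1% lower), and in WDM 2 of 3 were called against 39.1% (19.0% higher, 20.0% lower). MT2A had 12.3, 12.1 and 10.1 CPM in untreated WT and 9.00, 10.8 and 9.71 CPM in untreated WDM. Its difference was log2 0.37 in WT (edgeR adjusted p 0.105) and its rise 0.54 in WDM (0.0169). The WDM call of MT2A was lost without untreated replicate 1 (0.47, edgeR adjusted p 0.0781) or arsenite replicate 2 (0.33, 0.13). MTF1 had 17.2, 13.4 and 17.8 CPM in untreated WT and 18.1, 16.4 and 19.0 CPM in untreated WDM. Its differences were log2 0.47 (edgeR adjusted p 0.0762) and 0.48 (0.0551). The WDM difference of MTF1 passed with 0.61 (edgeR adjusted p 0.0222) without arsenite replicate 3. These comparisons share their arsenite libraries with those against tetracycline and are not independent of them. The arsenite libraries also had tetracycline, so differences from untreated cells hold the effects of both. For SLC30A1, tetracycline over untreated was log2 0.39 in WT and 0.22 in WDM, neither called. Arsenite over tetracycline was log2 0.20 in WT, not called, and 0.37 in WDM, called.

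Several of these near-threshold values moved across it with the fit. When only the groups compared were fitted, MT2A in WT was called at log2 0.40 (edgeR adjusted p 0.00536) and MTF1 at 0.49 in WT (0.000704) and 0.48 in WDM (0.0119). With no low-count filter those 3 were called too, at edgeR adjusted p 0.0382, 0.00171 and 0.00398. With library size alone MT2A in WT (0.47, adjusted p 0.0428) and MTF1 in WDM (0.54, 0.0473) were called.

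Tetracycline itself, which induces the fusion protein, called 0 of 3 members by edgeR in either line, against 5.31% of all genes in WT and 6.30% in WDM. Leaving out 1 library at a time gave 1.11% (without untreated replicate 1) to 10.4% (without tetracycline replicate 1) in WT and 2.49% (without untreated replicate 2) to 4.52% (without tetracycline replicate 2) in WDM. DESeq2 also called 0. At an unadjusted p under 0.05 there was 1 in WT, SLC30A1, and 0 in WDM, against 21.8% and 21.2% of all genes. SLC30A1 was at log2 0.39 in WT (SE 0.126, edgeR adjusted p 0.0771) and 0.22 in WDM (0.324). It was called in WT without tetracycline replicate 2 (0.51, edgeR adjusted p 0.0399) and with no low-count filter (0.40, 0.00756). MT2A was at -0.10 and -0.02, and MTF1 at 0.16 and -0.03.

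In the granule fraction, MT2A and MTF1 rose with arsenite in both lines and SLC30A1 rose in WT. All 3 members were called in WT, against 30.6% of all 18366 genes (16.5% higher, 14.1% lower). That share was 17.1% without tetracycline replicate 3 and 20.4% without arsenite replicate 1. In WDM 2 of 3 were called, against 36.3% (18.7% higher, 17.7% lower).

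MT2A in WT granules had 2.20, 0.781 and 1.79 CPM with tetracycline and 3.39, 4.65 and 5.42 CPM with arsenite. The rise was 2.96-fold (log2 1.57, SE 0.357, 95% interval 0.84 to 2.30, edgeR adjusted p 0.00171). In WDM granules it had 0.397, 1.51 and 2.45 CPM with tetracycline and 5.19, 5.30 and 5.07 CPM with arsenite, a 3.18-fold rise (log2 1.67, SE 0.345, edgeR adjusted p 0.000505). In neither line did the groups overlap. The tetracycline values rest on 4 to 45 counts a library, so the folds are imprecise. Leaving out WDM tetracycline replicate 3, the highest of its group, gave the largest change of log2 2.26. The fits that left out a library ran from log2 1.29 to 2.26 in WDM and from 1.28 to 1.76 in WT.

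MTF1 in WT granules had 55.0, 40.3 and 36.9 CPM with tetracycline and 70.4, 71.1 and 73.1 CPM with arsenite. The rise was 1.66-fold (log2 0.73, SE 0.163, edgeR adjusted p 0.00146). In WDM granules the values were 34.0, 32.3 and 33.1 CPM with tetracycline and 69.9, 79.8 and 77.4 CPM with arsenite, a 2.19-fold rise (log2 1.13, SE 0.164, edgeR adjusted p 9.3e-06). The groups were apart in both lines, and both calls held in all 6 fits that left out a library. The summed nuclear RNAs did not separate these groups, at 2383 to 3482 CPM and 2586 to 2857 CPM in WT and 2175 to 2808 CPM and 2143 to 3191 CPM in WDM. Other markers did separate the WT granule groups. Summed mitochondrial RNA was at 1474 to 2919 CPM with tetracycline and 413 to 1004 CPM with arsenite, and the summed HEK293 markers at 480 to 565 CPM and 368 to 462 CPM. In WDM granules mitochondrial RNA overlapped, at 825 to 2214 CPM and 713 to 1146 CPM, as did the HEK293 markers, at 371 to 586 CPM and 322 to 387 CPM. Their part in the granule rises of the 3 members was not tested.

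SLC30A1 in WT granules had 68.9, 33.9 and 34.8 CPM with tetracycline and 99.3, 76.5 and 78.8 CPM with arsenite. The rise was 1.92-fold (log2 0.94, SE 0.225, edgeR adjusted p 0.00253). Tetracycline replicate 1, the shallowest library, held the high value of its group, and without it the change was log2 1.32 (edgeR adjusted p 0.000107). Over the 6 fits that left out a library the change ran from 0.74 to 1.32. It was called in each, with a highest edgeR adjusted p of 0.0495. In WDM granules the values were 42.4, 54.0 and 60.5 CPM with tetracycline and 57.7, 77.8 and 60.9 CPM with arsenite. These overlapped, and the difference of log2 0.26 (SE 0.221, 95% interval -0.20 to 0.71) did not pass the test (edgeR adjusted p 0.386).

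The line difference in these arsenite effects was tested as an interaction, which called 0 of 3 members in either fraction. It called 0.00% of all genes in both fractions by edgeR. DESeq2 called 0 genes in both as well. At an unadjusted p under 0.05 were 331 genes in cytosol (1.99% of all genes) and 2329 in the granule fraction (12.7%). For SLC30A1 in the granule fraction the WDM effect minus the WT effect was log2 -0.68 (SE 0.314, 95% interval -1.33 to -0.04, unadjusted p 0.0382, edgeR adjusted p 0.37), the 1 member under an unadjusted 0.05. Without WT tetracycline replicate 1 it was -1.07 (edgeR adjusted p 0.174). Over the 12 fits that left out a library it ran from -1.07 to -0.49, and 0 of them called it. For MTF1 it was 0.40 (interval -0.07 to 0.87) and for MT2A 0.10 (interval -0.93 to 1.13). In cytosol the differences were 0.08 for MT2A, 0.19 for MTF1 and 0.17 for SLC30A1, with 95% intervals of -0.42 to 0.59, -0.38 to 0.77 and -0.19 to 0.54. The same test of the tetracycline effect called 0 of 3 members, against 0.0180% of all genes (3 by edgeR, 11 by DESeq2). With an unadjusted p under 0.05 there were 749 genes (4.49% of all) and 0 members. The line differences of the tetracycline effect were 0.08 for MT2A, -0.19 for MTF1 and -0.16 for SLC30A1.

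The granule fraction was then compared with cytosol of the same line and treatment, which sets the share each RNA took of the pull-down library against its share in cytosol. These are not amounts of RNA. MTF1 was higher and MT2A lower in the granule fraction in all 4 comparisons, with no overlap of libraries. SLC30A1 was lower in 2 of them. The summed nuclear RNAs were also higher in the granule fraction, at 2143 to 3482 CPM against 197 to 830 CPM in cytosol, and the summed HEK293 markers lower, at 322 to 586 CPM against 1032 to 1497 CPM. Their part in these differences was not tested. All 3 members were called in tetracycline-treated WT and in arsenite-treated WDM, and 2 of 3 in the others. The share of all genes called was 75.7% and 71.1% with tetracycline in WT and WDM, and 70.5% and 72.0% with arsenite, so a call alone says little here. Higher in the granule fraction were 39.5% and 35.8% with tetracycline and 35.0% and 36.3% with arsenite, and lower were 36.2% and 35.3%, then 35.5% and 35.7%.

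MTF1 stood higher in the granule fraction by 2.42-fold (log2 1.27, SE 0.189, edgeR adjusted p 6.71e-07) in WT and 1.92-fold (log2 0.94, SE 0.19, adjusted p 7.27e-05) in WDM with tetracycline. With arsenite it stood higher by 3.01-fold in WT (log2 1.59) and 2.80-fold in WDM (log2 1.48). MT2A was lower by log2 fold changes of -2.80 (SE 0.324, edgeR adjusted p 8.66e-09) in WT and -2.59 (SE 0.319, adjusted p 3.61e-08) in WDM with tetracycline, and of -1.81 and -1.59 with arsenite. SLC30A1 stood below cytosol in WT with tetracycline, at log2 -0.78 (SE 0.218, edgeR adjusted p 0.00231), with overlapping libraries. Over the 6 fits that left out a library it ran from -0.62 to -1.14, the latter without granule WT tetracycline replicate 1. In WDM with arsenite it was lower by -0.65 (SE 0.212, edgeR adjusted p 0.0082), a call lost without granule WDM arsenite replicate 1 (-0.52, adjusted p 0.0526). Its other values were -0.44 (edgeR adjusted p 0.0679) in WDM with tetracycline and -0.14 (0.574) in WT with arsenite. The first of these passed with no low-count filter (adjusted p 0.0119), when only the groups compared were fitted (0.0431), without cytosol WDM tetracycline replicate 2 (0.0432) and without granule WDM tetracycline replicate 3 (0.0339).

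The 3 members differ in length, and the granule share of protein-coding genes followed length in both lines. The longest annotated transcripts measure 903 bases for MT2A, 5893 for SLC30A1 and 7937 for MTF1. Among the 415 protein-coding genes under 1 kb, the median log2 difference, granule over cytosol, was -1.92 in WT and -1.71 in WDM with tetracycline, and 25.1% and 16.4% of the class lay below MT2A. With arsenite the medians were -1.90 and -1.82, and 52.0% and 54.5% lay below MT2A, so it sat near the middle of its class. Among the 1651 genes of 6 to 8 kb the medians were 0.47 and 0.41 with tetracycline and 0.62 and 0.47 with arsenite. Of that class 25.6% and 28.0% lay above MTF1 with tetracycline and 7.21% and 8.06% with arsenite. Among the 3505 genes of 4 to 6 kb, whose medians were 0.07 to 0.19, 18.8% to 35.3% lay below SLC30A1. These places are descriptions with no test. The restriction to protein-coding genes was chosen after the values were seen.

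**Figure D3:**
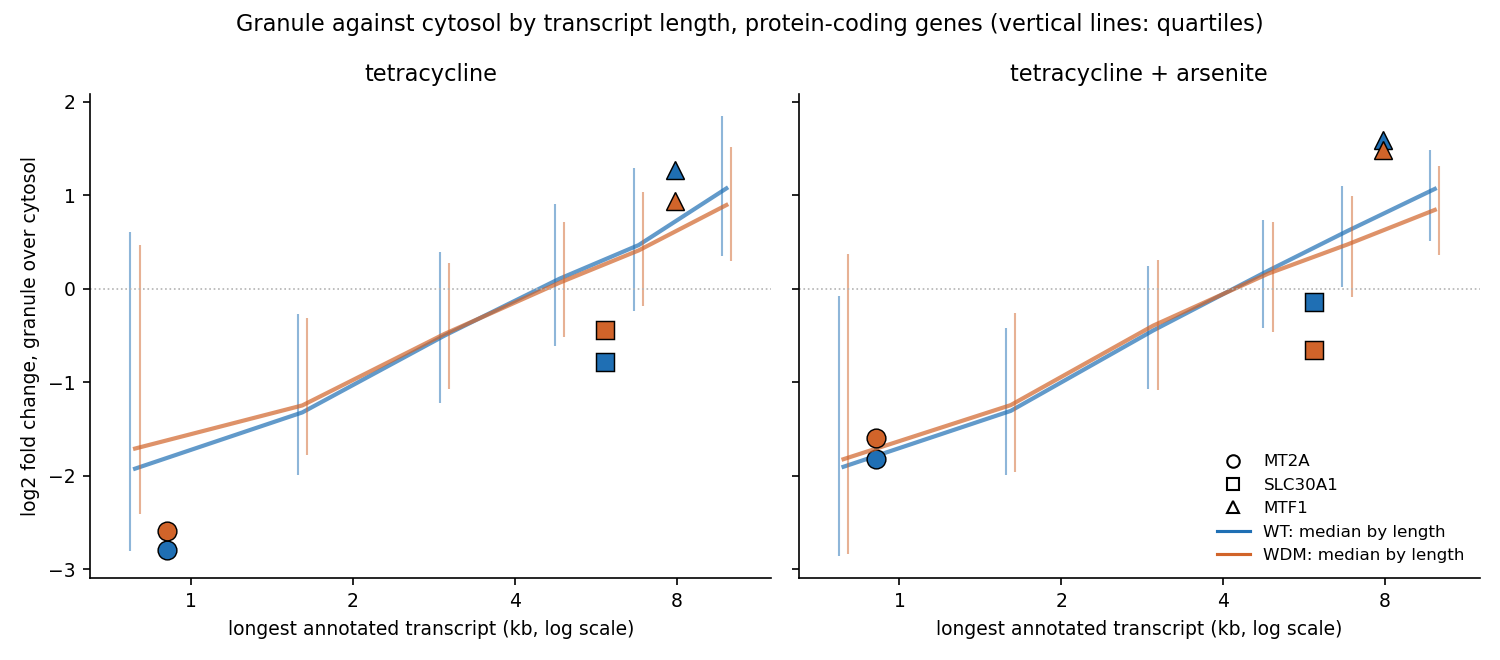
Log2 fold change of the granule fraction over cytosol (vertical axis) against the longest annotated transcript in kb (log horizontal axis), with tetracycline at left and with arsenite at right; lines join the medians of 6 length classes of protein-coding genes, vertical lines are quartiles, and symbols are the members in the WT (blue) and WDM (orange) lines. MT2A lies under its class median with tetracycline and close to it with arsenite, MTF1 lies above its class median throughout and SLC30A1 below.

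Whether arsenite changed the granule-to-cytosol difference was tested as an interaction. By edgeR it called 0 of 3 members in each line, against 31.4% of all genes in WT and 24.2% in WDM. At an unadjusted p under 0.05 there were 2 in WT, MT2A and SLC30A1, and 2 in WDM, MT2A and MTF1. Of all genes, 42.05% in WT and 36.19% in WDM were under that threshold. For MT2A the change was log2 0.98 (SE 0.42, edgeR adjusted p 0.0741) in WT and 1.00 (SE 0.413, 0.0777) in WDM, while the median over all genes was -0.21 and -0.17. DESeq2 called MT2A in both lines (1.04 and 1.03, DESeq2 adjusted p 0.032 and 0.0353), and so did edgeR with no low-count filter (1.19 and 1.11, adjusted p 0.00439 and 0.011). MT2A was also called in WT when only the groups compared were fitted (0.97, edgeR adjusted p 0.0272). In WDM it was called without cytosol tetracycline replicate 1 (1.15, edgeR adjusted p 0.0481), cytosol arsenite replicate 2 (1.21, 0.0383) or granule tetracycline replicate 3 (1.61, 0.0116). SLC30A1 had 0.64 in WT (edgeR adjusted p 0.107) and -0.21 in WDM, and the WT value was called without granule WT tetracycline replicate 1 (1.01, adjusted p 0.00476) and with no low-count filter (0.85, 0.00184). MTF1 had 0.32 and 0.54 (edgeR adjusted p 0.372 and 0.131), and the WDM value was called without cytosol tetracycline replicate 2 (0.75, 0.0385).

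Between the lines, 0 of 3 members were called by edgeR or DESeq2 in any of 5 comparisons. The share of all genes called was 9.78% untreated, 12.6% with tetracycline and 10.4% with arsenite in cytosol, and 5.55% and 7.95% with tetracycline and arsenite in the granule fraction. In cytosol 0 members had an unadjusted p under 0.05, against 23.15% to 26.91% of all genes. The WDM-minus-WT differences there ran from log2 -0.26 for untreated MT2A (95% interval -0.63 to 0.11) to 0.11 for MTF1 with arsenite. In the granule fraction 2 members had an unadjusted p under 0.05, against 17.2% of all genes with tetracycline and 24.2% with arsenite. MTF1 with tetracycline was lower in WDM in every library (log2 -0.41, 95% interval -0.74 to -0.07, edgeR adjusted p 0.177), and SLC30A1 with arsenite had log2 -0.47 (interval -0.92 to -0.02, adjusted p 0.187) with overlapping libraries.

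Other genes of metal handling were read from lists of 53 genes. Metallothioneins other than MT2A were close to undetected: of 12 in the table, 6 had 0 counts in every library, among them MT1X, MT1A and MT1M, and MT1E and MT1G had 1 count in all. A count of 0 allows up to the floor of 3 counts in a library. MT1F had 136 counts over all libraries, at most 12 in 1 library. In WT cytosol it had 0.555 to 0.960 CPM with arsenite and 0.295 to 0.565 CPM with tetracycline. In WDM cytosol it had 0.239 to 0.752 CPM and 0.159 to 0.555 CPM, and the groups overlapped in both lines. None was tested within a fraction. Between fractions 1 was tested. It was called lower in the granule fraction with arsenite (log2 -2.82 in WT, -1.99 in WDM), as were 35.5% and 35.7% of all genes. With tetracycline it was not called (-1.28 and -1.55). The MT1 genes are near-identical copies of each other and resemble MT2A, and all exons of MT1X and MT1L lie inside another gene on their strand. How reads shared by such genes were counted is not given in the sources used here, so these values, and the MT2A level, are uncertain to that extent.

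In cytosol, the other zinc transporters that passed the test were all lower with arsenite. Of 9 zinc exporters of the SLC30 family besides SLC30A1, 7 were tested, and 4 were called lower in WT and 3 in WDM, with 0 higher in both. Of all genes, 15.4% were lower and 13.7% higher in WT, and 14.8% and 14.1% in WDM. The exporters' median log2 change was -0.27 in WT and -0.24 in WDM, against -0.02 and -0.00 for all genes. SLC30A5 and SLC30A6, which load zinc into the secretory pathway, fell by 0.47 and 0.39 in WT and by 0.48 and 0.30 in WDM on the log2 scale (edgeR adjusted p 0.000451, 0.00157, 0.000461 and 0.0103). SLC30A9 fell by 0.28 and 0.24, and SLC30A7 fell in WT by 0.27. Of 14 zinc importers of the SLC39 family 9 were tested, and 0 were higher and 7 lower in WT, 0 and 6 in WDM, with medians of -0.53 and -0.46. SLC39A6, SLC39A7, SLC39A8, SLC39A9, SLC39A10 and SLC39A14 fell in both lines. SLC39A7, which releases zinc from the endoplasmic reticulum, had log2 changes of -0.64 and -0.49, and SLC39A14, a plasma membrane importer of zinc and iron, had -0.59 and -0.51 (edgeR adjusted p 4.27e-05 and 0.000178).

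The split of calls into rises and falls moved with the scaling. Under library size alone, all genes of WT cytosol had a median that moved from -0.02 to 0.11, and the share of calls that were rises from 47.1% to 76.7% (48.8% to 66.8% in WDM). Against untreated cells that share moved from 47.1% to 64.3% in WT and from 48.7% to 58.9% in WDM. For tetracycline in WT it moved from 55.1% to 43.9%, between the lines with tetracycline from 45.9% to 56.0%, and between the lines in arsenite-treated granules from 51.7% to 66.0%. Under that scaling the exporters still had 0 higher and 2 lower in each line, and the importers 0 higher and 6 lower. SLC30A7 in WT, SLC30A9 in both lines and SLC39A13 in WT lost their calls.

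In the granule fraction of WT, 3 of the 7 exporters were higher with arsenite and 0 lower, with SLC30A5 at log2 1.09, SLC30A4 at 0.70 and SLC30A6 at 0.48. Of all genes 16.5% were higher and 14.1% lower there. In WDM granules 0 exporters were higher and 1 lower, SLC30A9 at -0.76, against 18.7% and 17.7% of all genes. The exporters' medians were 0.35 and -0.12, against -0.03 and 0.01 for all genes. Of the 9 importers 3 were higher in each line, while 0 were lower in WT and 2 in WDM. SLC39A14 rose in both lines, by log2 1.15 and 0.77. The test of the line difference called 0 of the 7 exporters and 0 of the 9 importers by edgeR, and 0 of all genes by DESeq2. At an unadjusted p under 0.05 there were 3 exporters and 3 importers, beside 12.7% of all genes.

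**Figure D4:**
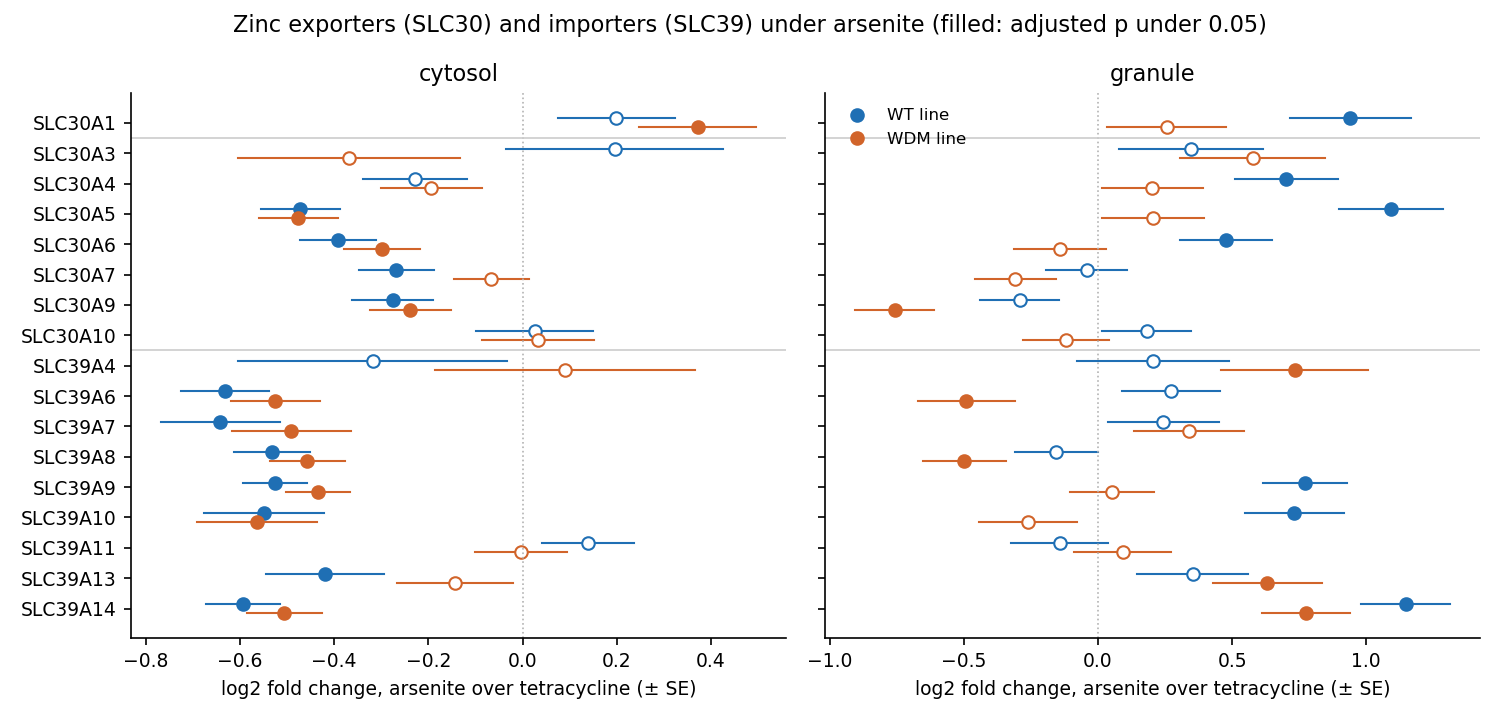
Log2 fold change of arsenite over tetracycline with its SE (horizontal axis) for SLC30A1 (top row), the other zinc exporters tested (SLC30) and the zinc importers tested (SLC39), in cytosol and in the granule fraction, WT in blue and WDM in orange; filled points passed an adjusted p of 0.05. In cytosol the called exporters and importers other than SLC30A1 are all below 0. SLC30A1 is above 0 in both lines and called in WDM alone, and some uncalled genes of both families are also above 0.

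Of 9 copper handling genes tested in cytosol, 3 were called lower in WT and 4 in WDM, and 1 (COMMD1, in WDM) higher, beside 15.4% and 14.8% of all genes lower and 14.1% higher in WDM. SLC31A1, the main copper importer, fell by 0.54 and 0.50 on the log2 scale. Under library size alone 1 gene of the list was lower in each line. In granules 1 was higher in each line, while 3 were lower in WT and 2 in WDM, beside 16.5% and 18.7% of all genes higher and 14.1% and 17.7% lower. Of 8 genes of arsenic transport and metabolism 5 were tested, and in cytosol 1 was called higher and 2 lower in each line, beside the same shares of all genes as for copper. ABCC2, an efflux pump of glutathione conjugates, rose by log2 0.90 and 0.89 (edgeR adjusted p 0.00149 and 0.00103). AQP3, a water and glycerol channel that can pass arsenite, fell by 1.01 and 0.90, and GSTO1, a glutathione transferase of arsenic metabolism, fell by 0.40 and 0.43 on the log2 scale. Under library size alone GSTO1 in WT was at -0.26 and lost its call (edgeR adjusted p 0.0647). In granules GSTO1 was lower in both lines, and ABCC1 was higher in WDM.

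The genes most like each member over the 18 cytosol libraries were taken by Pearson's r of log2 CPM among 11337 genes. For MT2A they were HECTD2 (r 0.918), CENPT (0.883), TBK1 (0.88), TOP3B (0.878) and DDX55 (0.874). For SLC30A1 they were MTERF1 (0.923), PCBD2 (0.908), GPATCH1 (0.907), AKAP8 (0.903) and FAM53C (0.899). For MTF1 they were GBF1 (0.949), WWP1 (0.949), NUP214 (0.949), PPRC1 (0.947) and CPSF7 (0.94). These values describe libraries that share treatments and lines, and no list held another member.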

How the data were processed

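The authors deposited raw read counts per gene for 30 RNA libraries, made with a stranded total RNA kit with ribosomal RNA depletion, per the labels' protocols. The submitters' processing notes name Trimmomatic, STAR, Picard, featureCounts and GRCh38; versions and the counting settings, strand included, are not given in the sources used here. The members and gene lists were chosen with earlier results of these data known. From the deposited counts, edgeR 4.0.16 (R 4.3.3) fitted quasi-likelihood models with group means, TMM factors and a low-count filter (minimum count 10, minimum total 15). There was 1 fit for cytosol (18 libraries, 16670 genes), 1 for the granule fraction (12 libraries, 18366 genes) and 1 for both fractions without the untreated groups (24 libraries, 18141 genes). Adjusted p-values are Benjamini-Hochberg over all genes of a fit, with a threshold of 0.05, in 22 comparisons, 5 of them interactions. Intervals are 95%, from the SE and the moderated t distribution. CPM in the text use library totals alone, and RPKM use GENCODE 44 exon lengths. Of 60664 gene IDs, 60463 were in GENCODE 44. The fits were tested on simulated data. Replicate libraries differed by more than sampling noise, with at least 1.63 chi-square units per degree of freedom. The other genes named are the members of the fixed lists that passed the test, and the 5 genes of highest correlation with each member. Other settings tried were DESeq2 1.42.0, a replicate block, only the groups compared, each replicate left out, no low-count filter, and scaling by RLE factors or by library size alone. Depth limits MT2A most, since its granule counts are low. Protein sequences were not used here.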

Additional observations from a re-analysis of the deposited data

How the results depend on the processing

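Among the 24 tests of arsenite and of fraction on the 3 members, RLE factors and DESeq2 left every direction and every call as they were, and leaving out 1 library left 127 of 144 fits so, with 12 losing a call and 5 gaining one. MTF1 in WDM cytosol passed at log2 0.59 with library size alone, 0.51 with no low-count filter and 0.52 with the replicate block (edgeR adjusted p 0.0452, 0.00204 and 0.012). SLC30A1 in WDM, granule over cytosol with tetracycline, passed at -0.46 with no low-count filter and -0.43 with only the groups compared. With only the groups compared, MT2A and SLC30A1 in WDM cytosol kept 0.56 and 0.37 but lost their calls; the cause was not tested. That setting also took the genes called from 4838 to 2737 (WT) and 4804 to 1921 (WDM) for cytosol arsenite over tetracycline, from 886 to 220 for tetracycline in WT, and between the lines from 1631 to 5463 untreated and from 2108 to 852 with tetracycline.

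Leaving out a library gave ranges in cytosol arsenite over tetracycline of 0.37 to 0.61 (MT2A, WT), 0.15 to 0.59 (MTF1, WT), 0.34 to 0.69 (MT2A, WDM), 0.33 to 0.65 (MTF1, WDM) and 0.25 to 0.52 (SLC30A1, WDM). In WDM, granule over cytosol, SLC30A1 ranged from -0.59 to -0.28 with tetracycline and -0.83 to -0.52 with arsenite. Values near 0 changed sign: tetracycline over untreated, MT2A -0.2412 to 0.0024 and MTF1 -0.12 to 0.32 in WT, -0.15 to 0.14 and -0.18 to 0.15 in WDM; WDM over WT in cytosol, MTF1 -0.0034 to 0.1787 untreated and -0.24 to 0.19 with tetracycline, SLC30A1 -0.26 to 0.0293 with tetracycline and -0.0609 to 0.14 with arsenite. Line differences of effects in cytosol did too, for arsenite (MT2A -0.13 to 0.22, MTF1 -0.0836 to 0.35) and for tetracycline (MT2A -0.0482 to 0.24, MTF1 -0.35 to 0.0928). In granules WDM over WT ranged for MT2A from -0.57 to 0.41 with tetracycline and -0.0086 to 0.29 with arsenite, and for MTF1 from -0.0672 to 0.0990 with arsenite; the MT2A difference of arsenite effects ranged from -0.29 to 0.69. MTF1 in arsenite-treated granules, WDM over WT, moved from -0.00 to 0.0820 with library size alone, 0.0190 with no low-count filter, 0.0004 with the replicate block and 0.0156 with only the groups compared.

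The replicate numbers were not taken to pair the samples, since the labels tie them to nothing and not every same-numbered pair correlated above 0.1: in cytosol 15 of 45 did (median 0.02, highest 0.49) against 8 of 90 pairs of different numbers, in the granule fraction 6 of 18 (median -0.04) against 15 of 36, and over both fractions 32 of 84 (median 0.06) against 37 of 168. The replicate block took the genes called for cytosol arsenite over tetracycline from 4838 to 5896 in WT and from 4804 to 5685 in WDM. Besides MTF1 above, the replicate block brought 3 values of arsenite over untreated past the threshold, MT2A and MTF1 in WT (edgeR adjusted p 0.0476 and 0.0217) and MTF1 in WDM (0.0122). Granule MT2A with tetracycline rests on 4 to 45 counts a library, which limits its folds.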
